A study of Mus musculus with 2 samples.

Results

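The 10 smooth muscle contractile genes described here are Myh11, Acta2, Actg2, Tagln, Cnn1, Des, Mylk, Smtn, Lmod1 and Synpo2, 10 of 32285 genes counted in colon nuclei. They were taken by their symbols in the deposited gene list, where each symbol had 1 gene ID, and their UMI counts (unique molecular identifiers, 1 per captured RNA molecule) were summed by cell class and genotype. The series holds single-nucleus RNA sequencing of whole colon from Pink1 knockout mice and from wild-type littermates, all males of the C57BL/6 strain aged 15 weeks. Each genotype has 1 library (batch 2 for knockout, batch 1 for wild type), for which sorted nuclei from 3 mice were pooled. Genotype, library and batch therefore cannot be told apart, and no comparison has a replicate or a test. The sources used here do not say how the Pink1 allele was disrupted. Intervals in parentheses are 95% intervals of counting error only, and ratios are the knockout over the wild-type library.

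Smooth muscle of the gut wall shortens when calcium, through calmodulin, activates a kinase that phosphorylates the myosin light chain, so that myosin pulls on actin filaments. Those filaments are anchored to dense bodies and membrane plaques and are lined by regulatory proteins. Many of these genes are switched on together by serum response factor with its cofactor myocardin, which act at CArG boxes in the DNA near the genes.

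On GRCm38 with GENCODE M21, the motor and its kinase both lie on chromosome 16. Myh11, the smooth muscle myosin heavy chain, spans chr16:14194535-14291372 on the minus strand, and Mylk, myosin light chain kinase, chr16:34745210-35002420 on the plus strand. The actin genes are Acta2, alpha smooth muscle actin, at chr19:34241090-34255590, and Actg2, the gamma actin typical of gut muscle, at chr6:83512905-83536265, both on the minus strand. Among the genes for actin-binding proteins, Tagln (transgelin) lies at chr9:45929619-45936058 and Smtn (smoothelin) at chr11:3517523-3540612, both on the minus strand, and Cnn1 (calponin) at chr9:22099216-22109630 on the plus strand. Synpo2, which bundles actin, spans chr3:123076519-123236149 on the minus strand, and Lmod1 (leiomodin), which starts new actin filaments, chr1:135324807-135368065 on the plus strand. Des, the intermediate filament protein desmin, lies at chr1:75360329-75368579 on the plus strand.

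A RefSeq promoter window of 300 bases (250 before and 50 after the gene start, GRCm38.p6) was found for 7 of the 10 genes. None of the 7 held an exact CArG box on either strand, a motif present in 1.63% of 32851 promoters. With 1 mismatch allowed, 2 of the 7 windows, those of Acta2 and Lmod1, held 2 matches each, against 21.1% of all promoters with at least 1. These stretches are shown because each carries a pair of near-matches (capitals). By the gene start of its promoter window, they begin 84 and 34 bases before the start in Acta2 and 189 and 164 bases before it in Lmod1. The GENCODE M21 span of Acta2 reaches to chr19:34255590 on the minus strand, so by that annotation the Acta2 stretch lies inside the gene. The Acta2 stretch is chr19:34255378-34255477 on the minus strand and the Lmod1 stretch chr1:135324604-135324678 on the plus strand, each 5′ to 3′.
Acta2: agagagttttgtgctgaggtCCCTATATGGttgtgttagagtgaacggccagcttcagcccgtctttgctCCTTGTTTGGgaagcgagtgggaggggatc
Lmod1: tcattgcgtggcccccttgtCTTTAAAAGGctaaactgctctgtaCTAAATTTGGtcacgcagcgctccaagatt
A match is a description of the letters and not of a bound site, and no match says only that these windows lack the letters.

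The knockout library held 22446326 UMIs in 12230 barcodes and the wild-type library 16997995 UMIs in 8924 barcodes. After filtering, 10966 knockout nuclei (median 1570 UMIs) and 8256 wild-type nuclei (median 1626 UMIs) were kept, of which 22 barcode sequences occurred in both libraries. Pink1 itself had 113 counts in kept knockout nuclei (6.1 CPM, counts scaled to the total over nuclear-encoded genes) and 170 in wild-type nuclei (11.3 CPM), a ratio of 0.541 (0.422 to 0.690). Since 3′ tags outside a deleted stretch are still counted, this checks the labels only in part. In smooth muscle-like nuclei Pink1 had 1 knockout and 5 wild-type counts.

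Smooth muscle-like nuclei were named from 10 other muscle markers, among them Myocd, Kcnmb1 and Jph2, and the contractile genes and their partner genes were kept out of the variable genes used for clustering. The class took in 528 knockout nuclei, 4.81% of those kept (4.42 to 5.23), and 293 wild-type nuclei, 3.55% (3.16 to 3.97). The share ratio was 1.36 (1.17 to 1.57). Other classes also took larger shares of the knockout library, among them plasma-like (1.78), blood endothelium-like (1.70), fibroblast-like (1.42), macrophage and dendritic-like (1.27) and colonocyte-like nuclei (1.17). Smaller shares were taken by, among others, B-like (0.277), crypt base-like (0.855) and goblet-like nuclei (0.888). All 10 markers were detected in both libraries and summed to 4657 CPM in knockout and 4890 CPM in wild-type smooth muscle-like nuclei. Markers of other cells were present too, with fibroblast markers at 2096 and 2254 CPM and pericyte markers at 792 and 704 CPM in knockout and wild type. Markers of interstitial cells of Cajal were at 487 and 579 CPM. Goblet markers were at 704 and 875 CPM, crypt base markers at 371 and 469 CPM and general epithelial markers at 443 and 417 CPM. Of 9 pericyte markers, 7 were detected in each library, and Higd1b and Ndufa4l2 were at 0 in both. Higd1b was also at 0 in both libraries of the unnamed stromal cluster described below, which carried more pericyte marker RNA. For fibroblasts, 12 of 12 markers in knockout against 10 of 12 in wild type were detected (Pdgfra and Clec3b at 0). The part of these other cells in the results was not tested.

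Each of the 10 genes reached its highest level in smooth muscle-like nuclei, in both libraries, among 17 classes with at least 20 nuclei per library. Together they made up 11746 CPM (11502 to 11993; 8858 counts) of RNA in knockout and 9468 CPM (9183 to 9761; 4155 counts) in wild-type smooth muscle-like nuclei. In epithelial nuclei, most of which should lack these RNAs, the sums were 135 CPM in knockout and 132 CPM in wild type. Smooth muscle-like nuclei thus held 74.8% of all counts of the 10 genes in the knockout library and 64.8% in the wild-type library. Over all nuclei, where class size and level per nucleus both enter, the genes summed to 639 CPM in knockout and 425 CPM in wild type (ratio 1.5, 1.46 to 1.55), and outside the class to 168 and 154 CPM.

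**Figure D1:**
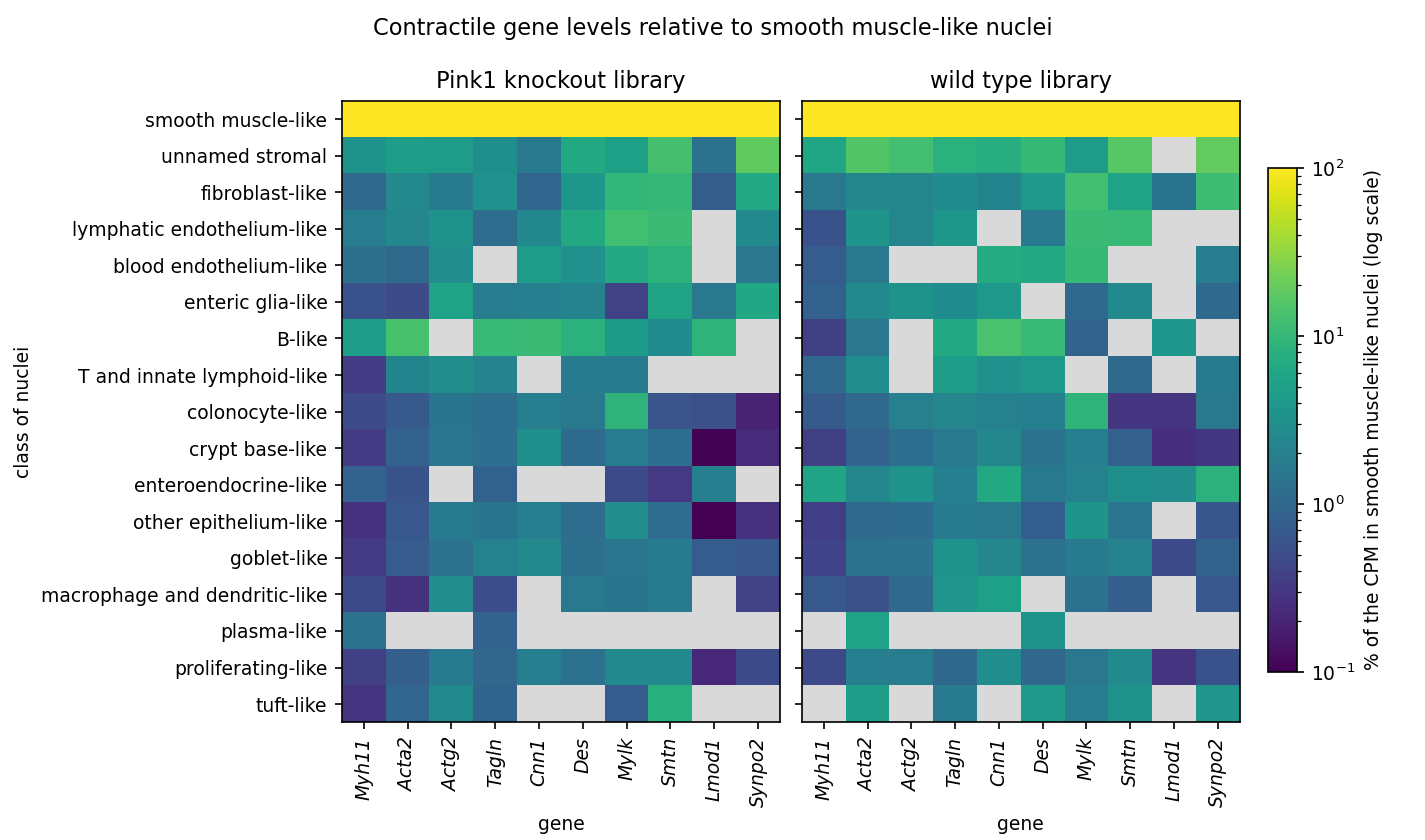
Level of each contractile gene (columns) in each class of nuclei (down the page), as a percentage of its level in smooth muscle-like nuclei of the same library, on a log colour scale, with the Pink1 knockout library on the left and the wild-type library on the right; grey marks 0 counts. All 10 genes are highest in smooth muscle-like nuclei in both panels, and the Mylk column stays visible in most other classes.

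At their median, smooth muscle-like nuclei showed UMIs of 5 of the 10 genes in knockout and 4 in wild type, at median depths of 1270 and 1218 UMIs. With every nucleus thinned to 500 UMIs the medians were 3 and 2. None of the 10 was seen at that depth in 28 knockout nuclei (5.30%) and 25 wild-type nuclei (8.53%). Single nuclei were therefore a sparse reading of the program, and levels below are sums over nuclei.

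The pair of motor genes was at similar or slightly higher levels in knockout smooth muscle-like nuclei. Myh11 stood at 4032 CPM in knockout (3041 counts) and 3259 CPM in wild type (1430 counts), a ratio of 1.24 (1.16 to 1.32). The share of nuclei with a Myh11 UMI was nearly the same, 84.5% in knockout (81.1 to 87.5) and 84.3% in wild type (79.6 to 88.3), against 2.30% and 2.17% of epithelial nuclei at median depths of 1663 and 1717 UMIs. At 500 UMIs per nucleus the shares were 65.3% and 65.2%, and the ratio of summed Myh11 levels at that depth was 1.07. With all UMIs but without Epha7-led nuclei, the group of deepest nuclei described below, it was 1.04. Mylk stood at 1496 CPM in knockout (1128 counts) and 1335 CPM in wild type (586 counts), a ratio of 1.12 (1.01 to 1.24).

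The actin genes differed from each other. Acta2 stood at 1179 CPM in knockout (889 counts) and 777 CPM in wild type (341 counts), a ratio of 1.52 (1.34 to 1.72). A UMI of Acta2 was found in 69.1% of knockout nuclei (65.0 to 73.0) and 53.6% of wild-type nuclei (47.7 to 59.4), and at 500 UMIs per nucleus in 41.5% and 28.0%. Actg2 stood at 431 CPM in knockout (325 counts) and 403 CPM in wild type (177 counts), a ratio of 1.07 (0.887 to 1.29) whose interval includes 1. Epithelial nuclei held 8.47 and 9.35 CPM of Acta2 and 6.59 and 5.75 CPM of Actg2 in knockout and wild type, close to equal between the libraries.

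Tagln had the largest ratio of the actin-binding proteins. It stood at 1224 CPM in knockout (923 counts) and 722 CPM in wild type (317 counts), a ratio of 1.69 (1.49 to 1.93), and was found in 65.5% of knockout nuclei (61.3 to 69.6) and 44.0% of wild-type nuclei (38.3 to 49.9). At 500 UMIs the shares were 40.7% and 25.6%, and epithelial nuclei held 17.3 and 14.6 CPM. Smtn, a marker of differentiated contractile cells, stood at 1126 CPM in knockout and 1064 CPM in wild type, a ratio of 1.06 (0.944 to 1.19) that turned to 0.901 at 500 UMIs per nucleus. Cnn1 was the one gene with a ratio below 1, with 292 CPM in knockout (220 counts) and 349 CPM in wild type (153 counts), or 0.837 (0.678 to 1.04). A single wild-type nucleus held 17.6% of the wild-type Cnn1 counts, and the ratio was 0.999 without the nucleus richest in contractile counts in each library and 1.04 at 500 UMIs. Both main intervals include 1 and the alternative ratios have no interval, so the direction for Cnn1 and Smtn is not settled. The cause of these shifts was not tested.

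Of the cytoskeletal genes, Des stood at 776 CPM in knockout (585 counts) and 577 CPM in wild type (253 counts), a ratio of 1.35 (1.16 to 1.57). One wild-type nucleus held 15.8% of its wild-type counts, and without the richest nucleus of each library the ratio was 1.56. Lmod1 stood at 359 CPM in knockout (271 counts) and 319 CPM in wild type (140 counts), a ratio of 1.13 (0.915 to 1.39). Lmod1 was also the most restricted of the 10, with 92.2% of its knockout and 90.9% of its wild-type counts in smooth muscle-like nuclei and 1.10 and 0.767 CPM in epithelial nuclei. Synpo2 stood at 831 CPM in knockout (627 counts) and 663 CPM in wild type (291 counts), a ratio of 1.25 (1.09 to 1.45) that was 0.945 at 500 UMIs.

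Counted together, 2 of the 10 genes (Acta2 and Tagln) were at least 1.5-fold higher in knockout smooth muscle-like nuclei and 0 were at least 1.5-fold lower. Among 3823 genes with at least 50 counts in the class, 8.37% were that much higher and 5.62% that much lower. Ratios of 9 of the 10 were above 1, with a median log2 ratio of 0.24 against 0.03 over the 3823 genes. The share of all genes above 1 was not counted. Of the 9, the intervals of Actg2, Smtn and Lmod1 include 1. At 500 UMIs per nucleus Smtn (0.901) and Synpo2 (0.945) were below 1 and Cnn1 (1.04) above it. The count of 2 rests on 1 group of nuclei described next: without the Lepr-led nuclei, 0 genes were 1.5-fold higher (Acta2 1.23, Tagln 1.19) and 1 was lower (Cnn1, 0.636). That Cnn1 value still includes the nucleus with 17.6% of the wild-type Cnn1 counts of the class.

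**Figure D2:**
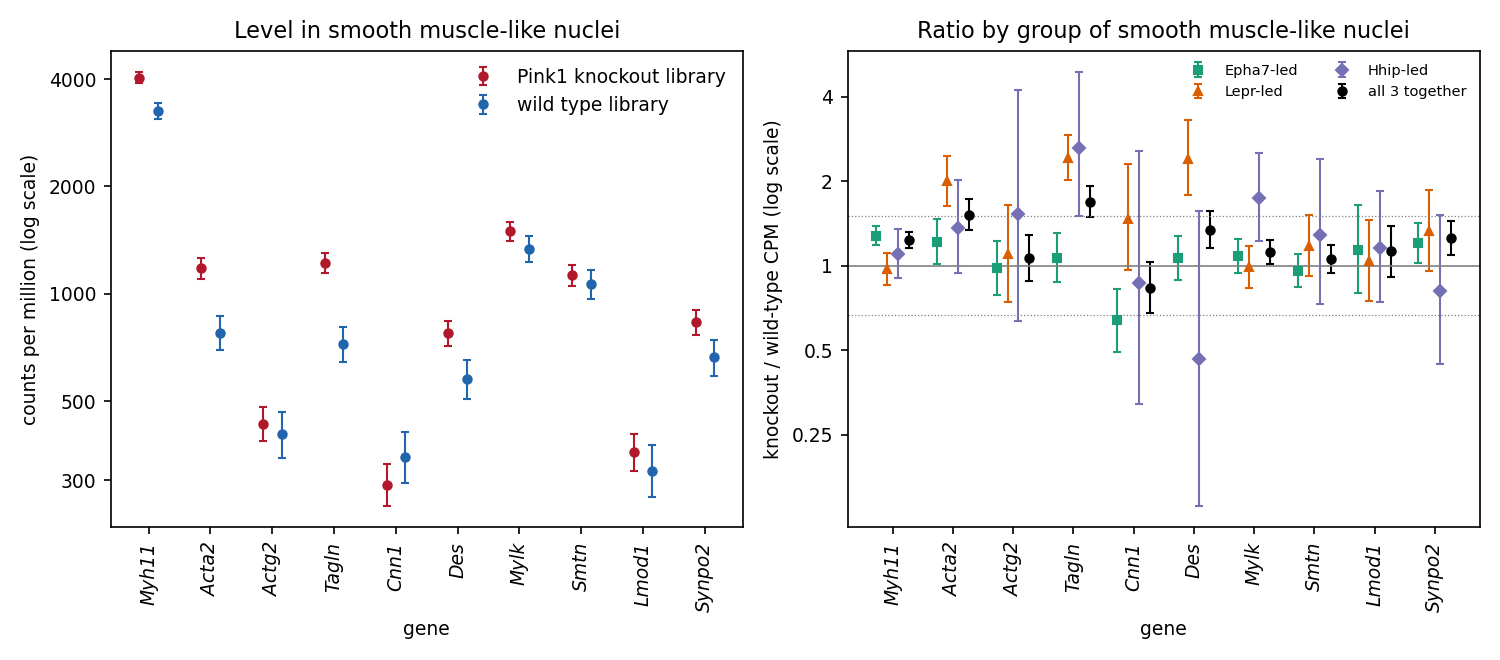
Left, level of each contractile gene in smooth muscle-like nuclei (CPM, log axis; knockout left of wild type, bars are 95% Poisson intervals of counting error), to be read within a gene and not between genes, since RNA length was not taken into account. Right, ratio of knockout to wild-type CPM in the whole class and in its 3 groups (log axis, bars are 95% intervals of counting error, dotted lines at 1.5-fold); Acta2, Tagln and Des are above the upper line in the Lepr-led group (2.00, 2.42 and 2.41) and below it in the Epha7-led group.

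Smooth muscle-like nuclei fell into 3 groups when clustered on their own without the contractile genes. The Epha7-led group (also led by Prune2 and Bcl11a) had 156 knockout and 89 wild-type nuclei. The Lepr-led group (also led by Fap, Ano1, Nr4a1 and Egr1) had 231 knockout and 143 wild-type nuclei, and the Hhip-led group (also led by Nrg1 and Bdkrb2) 141 knockout and 61 wild-type nuclei. All 3 took a larger share of the knockout library, with share ratios of 1.32 (1.01 to 1.73), 1.22 (0.983 to 1.51) and 1.74 (1.28 to 2.39). The groups are called by leading genes because no marker list assigns them to a muscle layer. Hhip-led nuclei carried more fibroblast marker RNA (3940 CPM in knockout and 4540 CPM in wild type) than smooth muscle marker RNA (3379 and 3709 CPM), whereas in Epha7-led and Lepr-led nuclei the muscle markers were higher. Lepr-led nuclei carried markers of interstitial cells of Cajal, among them Ano1, at 855 CPM in knockout and 877 CPM in wild type. Of the 5 markers on that list, Prkcq was at 0 in both libraries there, and Kit was at 0 in wild type. The list summed to 227 and 339 CPM in Epha7-led and to 224 and 208 CPM in Hhip-led nuclei. In the clustering of all nuclei, a cluster led by Hhip (142 knockout and 64 wild-type nuclei) had no class marker among its 10 leading genes and was named from 8 of the 10 smooth muscle markers. Without the Hhip-led group (141 knockout and 61 wild-type nuclei), 2 of the 10 contractile genes were at least 1.5-fold higher and 0 lower, and the median log2 ratio was 0.23.

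The contractile program was strongest in Epha7-led nuclei. The 10 genes summed to 17646 CPM in knockout and 15628 CPM in wild type there, to 8108 and 5903 CPM in Lepr-led nuclei and to 6646 and 5211 CPM in Hhip-led nuclei. In both libraries 8 of the 10 were highest in Epha7-led nuclei. Of the others, Lmod1 was highest in Hhip-led nuclei of both libraries, and Tagln in Lepr-led nuclei of the knockout (1710 CPM) but in Epha7-led nuclei of the wild type (925 CPM). Epha7-led nuclei were also the deepest, with median UMIs of 1871 in knockout and 1591 in wild type, against 1210 and 1262 in Lepr-led and 905 and 893 in Hhip-led nuclei, and the part of depth was not tested. Myh11 was highest there and lowest in Lepr-led nuclei, with 6942 CPM in knockout and 5425 CPM in wild type in Epha7-led nuclei, 1790 and 1840 CPM in Lepr-led nuclei and 2564 and 2318 CPM in Hhip-led nuclei. Smtn followed the order of the sums, with 2025 and 2105 CPM in Epha7-led, 570 and 484 CPM in Lepr-led and 351 and 272 CPM in Hhip-led nuclei of knockout and wild type. Actg2, the gut-type actin, was at 753 and 768 CPM in Epha7-led nuclei and at 224 CPM or less in the other groups. Lmod1 ran the other way, at 538 and 464 CPM in Hhip-led nuclei against 331 and 290 CPM in Epha7-led nuclei, with overlapping intervals in wild type. Des separated the groups most sharply, with 52.3 and 112 CPM in Hhip-led nuclei (7 counts in each library) against 1227 and 1149 CPM in Epha7-led nuclei.

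**Figure D3:**
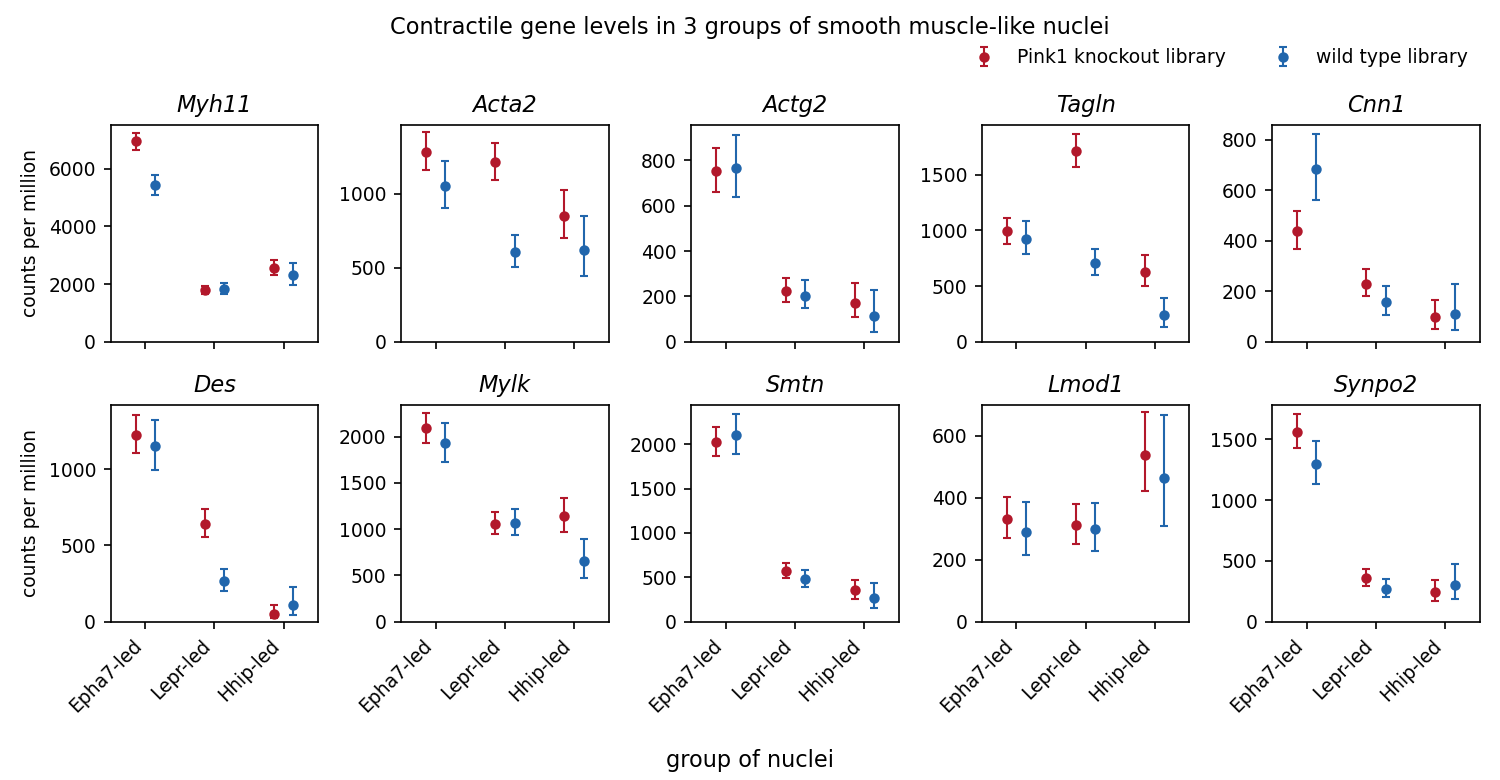
Level of each contractile gene (CPM) in the Epha7-led, Lepr-led and Hhip-led groups of smooth muscle-like nuclei, 1 panel per gene, with knockout left of wild type and 95% Poisson intervals of counting error. In both libraries 8 genes are highest in Epha7-led nuclei; Lmod1 is highest in Hhip-led nuclei, and Tagln in Lepr-led nuclei of the knockout and Epha7-led nuclei of the wild type.

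Lepr-led nuclei held the most genes past 1.5-fold. Acta2 was at 1214 CPM in knockout and 607 CPM in wild type there, a ratio of 2.00 (1.63 to 2.46). Tagln was at 1710 CPM in knockout and 706 CPM in wild type, a ratio of 2.42 (2.02 to 2.92). Des was at 640 CPM in knockout and 265 CPM in wild type, a ratio of 2.41 (1.79 to 3.31). The motor genes did not follow: Myh11 had a ratio of 0.973 and Mylk of 0.989 in the same nuclei. These 3 of 10 genes were at least 1.5-fold higher and 0 lower, against 11.7% higher and 6.8% lower among 1603 genes, with a median log2 ratio of 0.32 over the 10 and -0.01 over all.

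Epha7-led nuclei gave a different picture. There 0 of the 10 genes were 1.5-fold higher and 1 was lower, against 9.67% and 6.19% of 1292 genes, and the median log2 ratio was 0.10 against 0.06 over all. The lower one was Cnn1, at 438 CPM in knockout and 683 CPM in wild type (ratio 0.641, 0.496 to 0.831), while Acta2 (1.22), Tagln (1.07) and Des (1.07) stayed within 1.5-fold. A single wild-type nucleus held 23.9% of the wild-type Cnn1 counts there, so the low Cnn1 ratio rests in part on 1 barcode. The richest knockout nucleus held 10.4%. A Cnn1 UMI was found in 46.2% of knockout and 40.4% of wild-type Epha7-led nuclei, and after thinning to equal depth in 16.7% and 20.2%, with overlapping intervals. In Hhip-led nuclei 2 of 9 genes with at least 20 counts were higher and 0 lower. Among 508 genes with at least 50 counts there, 10.4% were higher and 5.91% lower, and the median log2 ratios were 0.34 and 0.06. The higher ones were Tagln, at 628 CPM in knockout (84 counts) and 240 CPM in wild type (15 counts; ratio 2.62, 1.5 to 4.89), and Mylk, at 1144 CPM in knockout and 655 CPM in wild type (ratio 1.75, 1.23 to 2.53). Whether ratios differ between the 3 groups of nuclei was not tested.

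Immediate early genes, the fast transcriptional answer to a stimulus, also differed between the libraries, with a higher sum in knockout in each group. Whether they moved with the contractile genes was not tested. The 10 immediate early genes on the list summed to 9479 CPM in knockout and 247 CPM in wild type in Lepr-led nuclei. The sums were 1285 and 683 CPM in Epha7-led and 1637 and 95.9 CPM in Hhip-led nuclei. When the class was divided more finely, into 4 groups, one led by Nr4a1, Fos and Egr1 held 182 knockout and 8 wild-type nuclei, and one led by Adgrl3, Rian and Rspo3 held 53 knockout and 138 wild-type nuclei. The other groups changed little in size, with 152 knockout and 86 wild-type nuclei led by Epha7 and 141 and 61 led by Hhip. By size, the Nr4a1-led and Adgrl3-led groups thus came mainly from Lepr-led nuclei. Each came mostly from 1 library, so the Lepr-led ratios compare different mixes of nuclei. The part of this in the Acta2, Tagln and Des values was not tested.

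Mylk was the least confined of the 10 to smooth muscle-like nuclei. Myosin light chain kinase also acts in gut epithelium, on the actomyosin ring at cell junctions, and 3′ tags do not separate the forms of the enzyme. Colonocyte-like nuclei held 132 CPM (119 to 146; 402 counts) in knockout and 121 CPM (107 to 136; 264 counts) in wild type. Goblet-like nuclei held 22.7 and 23.7 CPM and crypt base-like nuclei 26.9 and 26.7 CPM in knockout and wild type. The make-up of the contractile counts also differed from that of muscle: Mylk was 63.0% and 57.3% of the counts of the 10 genes in colonocyte-like nuclei, against 12.7% and 14.1% in smooth muscle-like nuclei. A Mylk UMI was found in 19.8% of knockout (17.9 to 21.7) and 20.1% of wild-type colonocyte-like nuclei (17.8 to 22.6), and at 500 UMIs per nucleus in 6.66% and 5.10%.

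Among colonocyte-like clusters, Mylk was highest in the one led by Slc10a2, the ileal-type bile acid transporter, with 163 CPM in knockout and 154 CPM in wild type. The cluster led by Slc37a2 was lowest, with 114 and 105 CPM. An epithelial cluster outside that class, led by Apol10a, held 79.9 and 81.1 CPM. In total 51.4% of knockout and 42.4% of wild-type Mylk counts lay in smooth muscle-like nuclei, and 38.3% and 46.7% lay in epithelial nuclei. Mylk was also present in fibroblast-like nuclei at 146 and 171 CPM, in lymphatic endothelium-like nuclei at 183 and 149 CPM and in blood endothelium-like nuclei at 96 and 135 CPM in knockout and wild type. In each of these classes the intervals of the libraries overlapped.

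Smtn and Tagln differed between the libraries in fibroblast-like nuclei as well. Fibroblast-like nuclei held 111 CPM of Smtn in knockout (92.5 to 133; 122 counts) and 58.2 CPM in wild type (40.9 to 80.2; 37 counts), a ratio of 1.92 (1.32 to 2.85). A Smtn UMI was found in 13.4% of knockout (11.1 to 16) and 7.82% of wild-type fibroblast-like nuclei (5.41 to 10.9), against 2.54% and 2.52% of epithelial nuclei, and at 500 UMIs in 4.65% and 2.20%. Tagln had a similar ratio there on fewer counts, 40.2 CPM in knockout (44 counts) and 20.4 CPM in wild type (13 counts; ratio 1.97, 1.04 to 3.98). Synpo2 lay the other way in fibroblast-like nuclei, at 53.9 CPM in knockout and 78.6 CPM in wild type (ratio 0.686, 0.462 to 1.02). In blood endothelium-like nuclei Smtn had 15 counts in knockout (96 CPM) and 0 in wild type.

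Synpo2 differed between libraries in colonocyte-like nuclei, at 1.64 CPM in knockout (5 counts) and 10.5 CPM in wild type (23 counts), a ratio of 0.156 (0.0463 to 0.420). These levels rest on few UMIs, 30.4% of the wild-type counts lay in 1 nucleus, and the shares at 500 UMIs were 0.117% and 0.273%. Of the 23 wild-type counts, 18 lay in the Slc37a2-led cluster, where 2.39% of 503 wild-type and 0.472% of 424 knockout nuclei had a UMI. The wild-type value of 183 CPM for Myh11 in enteroendocrine-like nuclei rests far more on 1 nucleus, which held 84.6% of its 39 counts. The knockout value was 35.0 CPM. That wild-type Myh11 value mostly describes a single barcode, not a class.

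**Figure D4:**
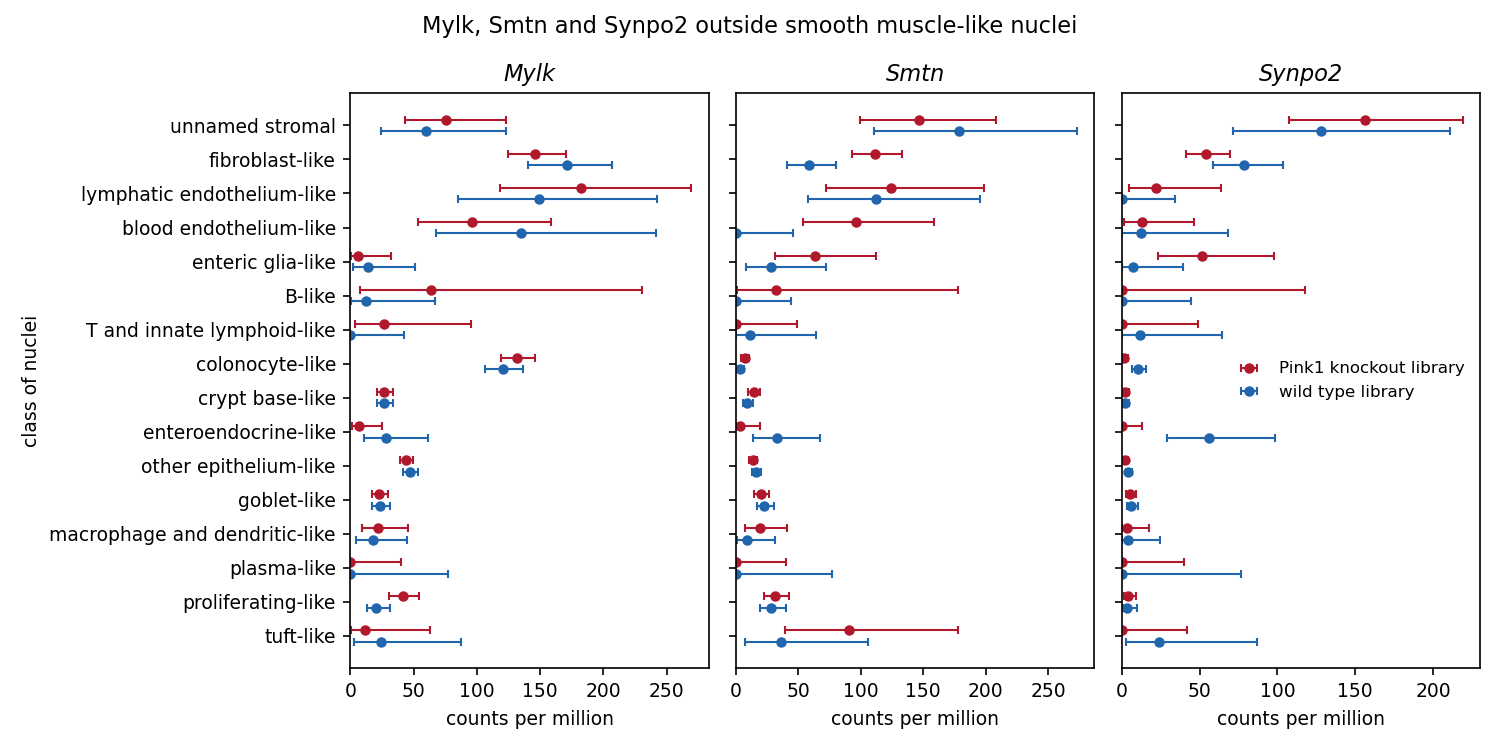
Level (CPM) of Mylk, Smtn and Synpo2 in classes of nuclei other than smooth muscle-like, with knockout above wild type and 95% Poisson intervals of counting error. Mylk is at 132 CPM in knockout and 121 CPM in wild-type colonocyte-like nuclei, and Smtn in fibroblast-like nuclei is at 111 CPM in knockout and 58.2 CPM in wild type.

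In each gene and library the interval of smooth muscle-like nuclei lay above that of the next class, and the next class overlapped the one after it in all cases but Synpo2 in knockout. B-like nuclei were often next, on 1 to 6 counts per gene. Otherwise the class next to muscle was in most cases an unnamed stromal cluster of 142 knockout and 77 wild-type nuclei, led by Sfrp4, Car3, Satb1 and Kcnn3. It mixed markers of interstitial cells of Cajal (3204 CPM in knockout and 2707 CPM in wild type), fibroblasts (2708 and 2316 CPM) and pericytes (1432 and 945 CPM). Its 10 leading genes held the pericyte marker Rgs5 and none of the interstitial cell markers, so it was given no cell type. Myh11 was at 137 CPM in knockout and 187 CPM in wild type there, Acta2 at 56.7 and 119 CPM, Smtn at 147 and 179 CPM and Synpo2 at 156 and 128 CPM. Nearest to smooth muscle-like nuclei among these was Synpo2, 5.33-fold below them in knockout and 5.19-fold below in wild type. Within it, the Sfrp4-led nuclei (47 knockout, 23 wild type) carried the 10 genes at 1094 CPM in knockout and 1303 CPM in wild type, and the Rgs5-led nuclei (42 knockout, 16 wild type) at 495 and 1104 CPM, on 31 and 25 counts. The leading genes of the Rgs5-led nuclei also held Etv1 and Kit, markers of interstitial cells of Cajal, so that name gives no cell type. All 5 wild-type Actg2 counts of the Rgs5-led nuclei lay in 1 nucleus.

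The partner lists below are set beside the same shares of all genes, 8.37% at least 1.5-fold higher and 5.62% lower. Those shares cover genes with at least 50 counts, whereas the lists include genes with at least 20, whose ratios vary more by counting error. Dapk3, Pln, Gucy1b1, Mrtfb and Mrtfa, named below as past 1.5-fold, had fewer than 50 counts. Of 17 genes for myosin light chains and their phosphorylation, 1 was at least 1.5-fold higher in knockout smooth muscle-like nuclei (Dapk3, 28 against 9 counts, named after its value was seen) and 0 lower, with a median log2 ratio of 0.16. The highest with at least 50 counts were Rhoa (1.39, 1.03 to 1.90), which inhibits myosin phosphatase through its kinases, and Mrvi1 (1.36, 1.01 to 1.84), which curbs calcium release. The lowest were the light chain Myl9 (0.918, 0.685 to 1.23) and the kinase Rock1 (0.893, 0.736 to 1.09). The other 16 lay within 1.5-fold, near the share of all genes.

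Of 25 actin filament, dense body and adhesion partners, 24 had at least 20 counts, 1 was higher and 1 lower, again near the share of all genes, with a median log2 ratio of 0.04. Itga5, the integrin chain of the fibronectin receptor, was the higher one (1.54, 1.19 to 2.01), and Synm, a partner of desmin in intermediate filaments, was just inside (1.49, 1.23 to 1.82). The integrin chain Itga8 was the lower one, at 75.6 CPM in knockout and 128 CPM in wild type (0.592, 0.402 to 0.872), and Ilk, a kinase that binds integrin tails, was at 0.830 (0.578 to 1.20).

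Of 19 genes of calcium handling and excitation, 18 had at least 20 counts, 1 was higher (Pln, 25 against 7 counts) and 2 were lower (Gucy1a1 and Gucy1b1), with a median log2 ratio of -0.05. Gucy1a1 and Gucy1b1 encode both chains of the soluble guanylate cyclase through which nitric oxide relaxes muscle, with ratios of 0.667 (0.444 to 1.00) and 0.533. Ryr2, a calcium release channel of the internal stores, was at 386 CPM in knockout and 497 CPM in wild type (0.777, 0.649 to 0.930). The calcium-binding store protein Casq2 (1.44, 0.769 to 2.82) and the calcium channel subunit Cacna2d1 (1.24, 0.973 to 1.59) had the highest ratios with at least 50 counts. Pln and Gucy1b1 were named after their values were seen.

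Of 16 transcription factors of contractile genes found in the gene list, 11 had at least 20 counts, 4 were higher (Klf4, Foxf1, Mef2d and Mrtfb) and 2 lower (Klf5 and Mrtfa), with a median log2 ratio of -0.27. Mef2d, Mrtfb and Mrtfa were named after their values were seen. Klf4, which represses contractile genes in cultured vascular muscle, was at 107 CPM in knockout (81 counts) and 57.0 CPM in wild type (25 counts; 1.89, 1.19 to 3.08). Its counts in the 3 groups were 7 against 12 in Epha7-led, 57 against 4 in Lepr-led and 17 against 9 in Hhip-led nuclei, so the excess lay in the Lepr-led nuclei. Foxf1, a factor of gut mesenchyme, had a ratio of 1.59 (1.11 to 2.33), Mef2c 0.692 (0.530 to 0.904) and Klf5 0.638 (0.381 to 1.07). Of the 10 immediate early genes, 9 were higher and 0 lower, with a median log2 ratio of 3.27. The lowest of those with at least 50 counts were Jun (4.41, 3.02 to 6.64) and Btg2 (7.87, 5.79 to 10.9), and Egr1 (1085 against 12 counts) and Nr4a1 (506 against 8) were the highest.

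**Figure D5:**
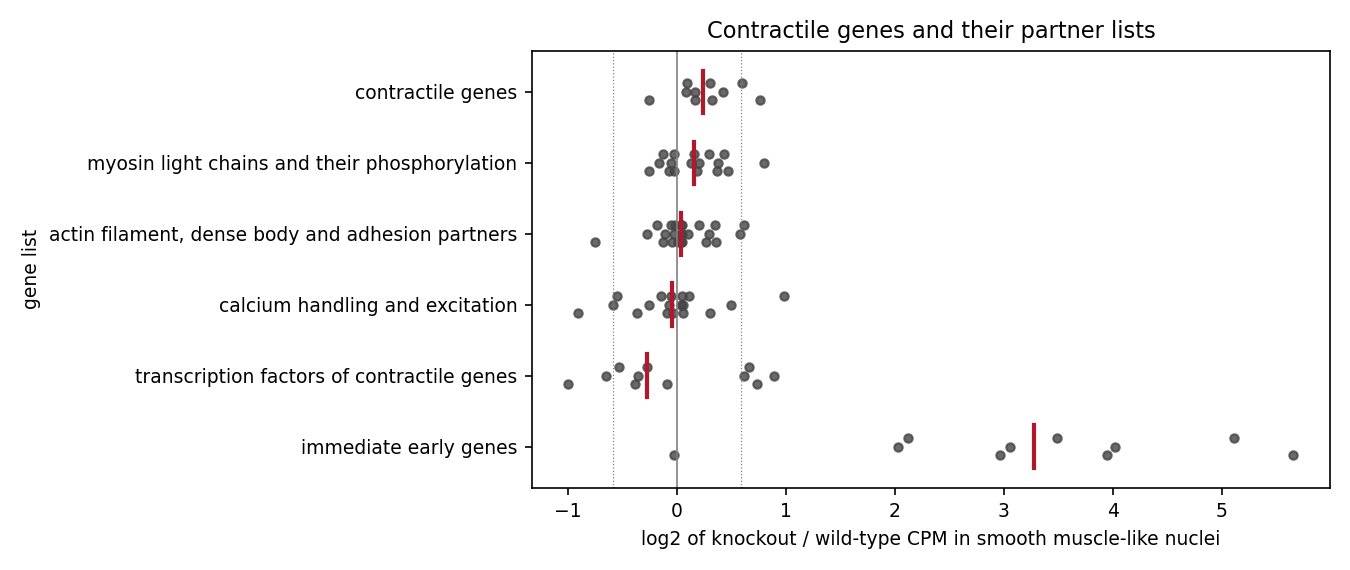
Log2 ratio of knockout to wild-type CPM in smooth muscle-like nuclei for each gene with at least 20 counts (points), for the contractile genes and the 5 partner lists, with the median of each list as a red bar. Medians run between -0.27 for the transcription factors and 0.24 for the contractile genes, apart from 3.27 for the immediate early genes.

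Across 34 points (17 classes in 2 libraries, which share library and depth), the level of each contractile gene was correlated with the mean of the other 9, on log2(CPM + 5). Pearson's r ran between 0.738 for Mylk and 0.888 for Myh11, with Smtn (0.779) and Cnn1 (0.789) next to Mylk at the low end. The 10 other genes most like the mean of the contractile genes were Ccbe1 (0.916), Jph2 (0.915), Unc5c (0.908), 4930511M06Rik, Npas4, Wscd2, Myom1, Gm11946, Carmn and Fras1 (0.882). Jph2, which ties the cell membrane to calcium stores, was among the class markers. Gm11946 overlaps Smtn by 6700 bases on the opposite strand, and the sources used here do not say whether strand was used in counting, so reads of the pair may not be separable. Gm11946 had 332 counts in knockout and 95 in wild-type smooth muscle-like nuclei, a ratio of 2.03 (1.61 to 2.58), while Smtn itself was at 1.06. Gm48529, which overlaps Tagln by 3627 bases on the opposite strand, had 28 counts in knockout and 1 in wild type against 923 and 317 of Tagln. Carmn, a long noncoding RNA of smooth muscle, was at 3330 CPM in knockout and 4257 CPM in wild type (0.782, 0.736 to 0.831), below 1 where Acta2 and Tagln were above it.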

How the data were processed

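Nuclei of colon from 15-week-old male mice were profiled with 10x Genomics 3′ tags, with nuclei of 3 mice per genotype pooled into 1 library. The deposited values are raw UMI counts. Per the file headers the authors used Cell Ranger 6.1.2, and the submitters' processing notes name mm10 (GRCm38). The sources used here do not give the annotation release, intron counting, strand use or doublet removal. Each file's smallest barcode held 500 UMIs.

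Barcodes with at least 500 UMIs, at least 300 genes and at most 10% mitochondrial UMIs passed (12146 knockout and 8888 wild type). The highest Scrublet scores, at 0.8% per 1000 barcodes, were removed as doublets (1180 knockout, 9.72%, and 632 wild type, 7.11%). Both libraries were clustered jointly (scanpy 1.11.5, leidenalg 0.10.2, Python 3.11.15): 2000 variable genes without the contractile and partner genes, 30 principal components, 20 neighbours, Leiden resolution 1 (0.5 within the muscle class). Clusters were named by marker lists with a rule set after the data were seen, so names may differ from the study's. The rule gave each cluster the list with the greatest mean log2 fold over other clusters, provided that mean reached 0.3 and 3 markers reached 2-fold, and left a cluster unnamed where its 10 leading genes held more markers of another list. General epithelial markers named clusters that met no other list. Enteric neuron-like nuclei (4 knockout, 16 wild type) were too few to compare. Median mitochondrial shares were 0.156% in knockout and 0.0836% in wild type.

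Counts were summed per library and class as CPM over nuclear-encoded genes. Intervals (scipy 1.17.1) are exact Poisson for levels, Clopper-Pearson for shares and conditional binomial for ratios, at 95%, for counting error only. With 1 library per genotype no test was run. List ratios add 0.5 to each count and need 20 counts, and shares over all genes need 50. Scripts were tested on simulated data.

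The members and lists were chosen with earlier results of these data known. Named were all 10 members, the 2 highest and 2 lowest of each partner list with at least 50 counts, the 10 genes most like the members' mean, and class markers. One leading gene of a group of nuclei is not reported here. Positions came from GENCODE M21, which matched 32235 of 32285 IDs. Alternatives were other filters, doublet rules, resolutions, scalings, thinning to 500 UMIs, free-RNA subtraction (10%), separate clustering, and, added after seeing the data, leaving out each group of muscle nuclei or weighting the groups equally.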

Additional observations from a re-analysis of the deposited data

How the results depend on the processing

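No paired analysis was possible because each genotype has 1 library. In each of the 4 alternatives that recomputed it, all 10 genes stayed highest in smooth muscle-like nuclei. The median log2 ratio of the 10 was between 0.16 and 0.41 over 16 alternatives, and the share ratio of the class between 1.20 and 1.45. Thinning to 500 UMIs turned the ratios of Cnn1 (1.04), Smtn (0.901) and Synpo2 (0.945) to the other side of 1 and moved that of Myh11 to 1.07 and the summed ratio over all nuclei to 1.45, while a stricter filter moved it to 1.60. Without Epha7-led nuclei, a choice made after seeing the data, Cnn1 was at 1.30 and Myh11 at 1.04, and 3 genes were at least 1.5-fold higher. Without Lepr-led nuclei, a choice of the same kind, 0 were higher and 1 lower, and with the 3 groups weighted equally 1 was higher. Acta2 ran between 1.23 and 1.81, Tagln between 1.19 and 2.31 and Des between 1.01 and 2.01. Scaling by the median ratio over genes shifted all log2 ratios by 0.03. Allowing 1 mismatch raised the promoters with a CArG box to 2. Of 160 values of single genes, 145 stayed within the main interval, 11 left it on the same side of 1, and 4 left it and crossed 1. Among the 145, Actg2 (0.981) and Smtn (0.948) without Lepr-led nuclei also crossed 1. At clustering resolutions 0.5 and 2 the gene ratios and the share ratio equalled the main values, so those alternatives did not vary them. One library per genotype, shallow nuclei and single barcodes that hold much of a gene's counts (17.6% for Cnn1 in wild-type smooth muscle-like nuclei, more in small classes) limit the ratios, and the cause of these shifts was not tested.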

Other observations

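The contractile genes were not evenly shared with their neighbours in the stroma. In the unnamed stromal cluster the Kcnn3-led nuclei (53 knockout and 38 wild type) carried the 10 genes at 421 CPM in knockout and 391 CPM in wild type, on 30 and 20 counts, the lowest of its 3 groups. Smtn was at 124 CPM in knockout and 112 CPM in wild type in lymphatic endothelium-like nuclei, and at 90.4 and 36.1 CPM in tuft-like nuclei, on 8 and 3 counts. In the Pappa-led fibroblast-like cluster Smtn was at 121 CPM in knockout and 67.0 CPM in wild type. Mylk in proliferating-like nuclei was at 41.2 CPM in knockout and 20.5 CPM in wild type. B-like nuclei held 22 counts of the 10 genes in 36 knockout nuclei and 17 counts in 98 wild-type nuclei, and all 6 knockout counts of Myh11 there lay in 1 nucleus.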
